A study of Mus musculus with 12 samples.

Results

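A set of 32 antiviral genes that type I interferon is known to switch on was followed across sorted mouse thymic epithelial cells (TECs), which nurse T cell precursors through their maturation. The set was named gene by gene: Isg15, Isg20, Ifit1, Ifit2, Ifit3, Ifit3b, Ifi44, Ifi27l2a, Ifi35, Irf1, Irf7, Irf9, Stat2, Mx1, Mx2, Oas1a, Oas1b, Oas2, Oas3, Oasl1, Oasl2, Usp18, Rsad2, Rtp4, Bst2, Xaf1, Ddx58, Ifih1, Dhx58, Trim30a, Parp9 and Parp14. All 32 matched a row among the 27179 counted genes, and all 32 passed the filter on low counts. The 12 RNA-seq libraries, 3 per group, came from C57BL/6 mice whose Hoil alleles (Rbck1) were floxed in every group. HOIL-deficient cortical TECs (cTECs) and HOIL-deficient MHC class II-high medullary TECs (mTEChi) came from Foxn1creT/+ HOILlox/lox mice. Control cTECs and control mTEChi came from Foxn1cre+/+ Hoillox/lox mice, which lack the Cre, so presence of the Cre and loss of Hoil cannot be told apart. Foxn1 drives the Cre in TECs, and the sample labels call the genotypes HOIL knock-out and wild type. Replicate 3 of both HOIL-deficient groups was female and the other 10 libraries were male. The labels give no age, no number of pooled animals and no statement that replicates were separate animals, so each p-value here speaks only of the spread seen among the sequenced libraries, part of which may be technical. Cells were sorted as EpCAM-positive, CD45-negative, TER-119-negative and CD31-negative, with Ly51 marking cTECs and UEA1 marking mTEChi.

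Type I interferons (the interferon alphas and interferon beta) bind the receptor IFNAR1-IFNAR2 and act through JAK1 and TYK2. STAT2 and IRF9 are parts of the complex that then binds interferon-stimulated response elements (ISREs) in the promoters of antiviral genes. Gamma-activated sites (GAS), such as the one in Irf1, respond most strongly to interferon gamma. Thymic medullary epithelial cells are known to make interferon beta and interferon lambdas without infection. HOIL-1 is a subunit of LUBAC, the ubiquitin ligase that builds linear ubiquitin chains in signalling to NF-kB.

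Promoter stretches are shown first because they carry the elements through which these genes are known to respond. RefSeq promoters of GRCm38.p6, which run from 250 bases before to 50 bases after a start, were found for 22 of the 32 genes. An ISRE-type core (GAAA, any 2 bases, GAAA), searched on both strands, occurred in 12 of these 22 genes (54.5%), against 3.99% of all 27025 genes with a promoter in the table. The letters TTCNNNGAA, a GAS-type core that reads the same on both strands, occurred in 6 of 22 (27.3%), against 9.55% of all genes. The motifs can overlap each other, as they do in Bst2. Capitals below mark a match or its reverse complement, and each stretch lies before the start that its RefSeq promoter was cut from. For Ifit3 and Ifit3b that start, and the stretch with it, lies inside the annotated span of the gene. Isg15 (chr4:156200855-156200916, minus strand) holds 3 overlapping ISRE-type matches, and Ifit1 (chr19:34640765-34640833, plus strand) and Ifit3 (chr19:34583353-34583436, plus strand) hold 2 each. Ifit3b (chr19:34607749-34607832, plus strand) has the same 84 bases as the Ifit3 stretch. Isg20 (chr7:78913331-78913379, plus strand) and Irf1 (chr11:53769904-53769952, plus strand) hold a GAS-type match. Oas3 (chr5:120777705-120777754, minus strand) and Bst2 (chr8:71537567-71537622, minus strand) stand for genes with ISRE-type matches that passed no HOIL test.
Isg15: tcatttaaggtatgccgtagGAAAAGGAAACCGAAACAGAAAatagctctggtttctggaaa
Ifit1: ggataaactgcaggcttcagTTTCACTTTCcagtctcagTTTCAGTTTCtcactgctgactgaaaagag
Ifit3: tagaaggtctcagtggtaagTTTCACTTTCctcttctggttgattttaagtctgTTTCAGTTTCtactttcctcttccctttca
Isg20: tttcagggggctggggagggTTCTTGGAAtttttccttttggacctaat
Irf1: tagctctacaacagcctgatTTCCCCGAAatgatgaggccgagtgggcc
Oas3: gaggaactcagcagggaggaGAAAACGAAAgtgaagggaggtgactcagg
Bst2: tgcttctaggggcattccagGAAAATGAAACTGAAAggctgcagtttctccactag

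The motifs occurred both among genes that were called and among genes that were not. Among the 17 genes that passed a HOIL test, 12 had a promoter in the table, and 6 of these held the ISRE-type letters and 3 the GAS-type letters. Among the other 15 genes, 10 had a promoter, with 6 and 3 matches. A gene that was not called is not thereby unchanged, as 13 of these 15 had mTEChi log2 fold changes below 0. A match is a run of letters and not a measured binding site.

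The labels were checked on the targeted gene and on cell type markers. Rbck1 stood at 11.3, 11.8 and 23.4 CPM in HOIL-deficient mTEChi, against 130.4, 129 and 113 CPM in control mTEChi, and at 20.8, 31.3 and 20.6 CPM in HOIL-deficient cTECs, against 186, 236 and 214 CPM in control cTECs (CPM, counts scaled to the TMM-adjusted library size, replicates 1 to 3 in this order throughout). Between control cell types, 9 of 10 mTEChi markers were higher and 10 of 11 cTEC markers lower in mTEChi. Library totals ranged from 7941217 to 14274333 counts. The make-up of the RNA was not alike in mTEChi. Mitochondrial transcripts took 1.71 to 1.91% of counts in HOIL-deficient mTEChi, against 3.19 to 8.93% in control mTEChi, where replicate 1 was highest. Malat1, a nuclear non-coding RNA, took 0.713 to 0.983% in HOIL-deficient mTEChi, against 3.29 to 5.13% in control mTEChi, without overlap. In cTECs both shares overlapped between the groups.

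Most antiviral genes that changed without HOIL were lower, in both cell types. In mTEChi 11 genes fell and 1 rose, which is 37.5% of the 32, beside 19.9% of the 19398 tested genes (8.59% called lower and 11.3% higher). In cTECs 10 genes fell and none rose, which is 31.2%, beside 12.1% of tested genes (6.02% lower and 6.06% higher). Among males only, without replicate 3 of both HOIL-deficient groups, 10 genes were called in mTEChi and 5 in cTECs. Calls among all tested genes fell as well, from 3858 to 2864 in mTEChi and from 2342 to 1540 in cTECs. A gene was called when its Benjamini-Hochberg adjusted p over all tested genes, from the edgeR quasi-likelihood F test, was under 0.05. The median log2 fold change of the 32 genes was -0.71 in mTEChi and -0.55 in cTECs, while that of all tested genes was -0.03 and -0.02. No member of the set was called higher in cTECs by DESeq2 or limma-voom, and none had an unadjusted p under 0.05 in that direction, against 15 in the lower direction. Ifit1, Ifit3, Ifit3b, Isg20 and Oasl2 fell in both cell types, which is 50% of the cTEC calls and 45.5% of the lower mTEChi calls. The matching overlap among all tested genes is not given here, so these shares are not read as particular to the set. Some of these calls were lost under alternatives described below. The 3 HOIL-deficient libraries all lay below the 3 controls for 17 genes in mTEChi, beside 22.5% of all tested genes, and for 15 genes in cTECs, beside 15.3%. The split of all calls depended on scaling: 56.8% of mTEChi calls were higher with TMM, against 46.3% with upper-quartile factors. The 15 genes called in no HOIL comparison had log2 fold changes of -1.88 to 0.20 in mTEChi, 13 of them below 0, and of -1.96 to 0.41 in cTECs, 11 of them below 0.

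**Figure D1:**
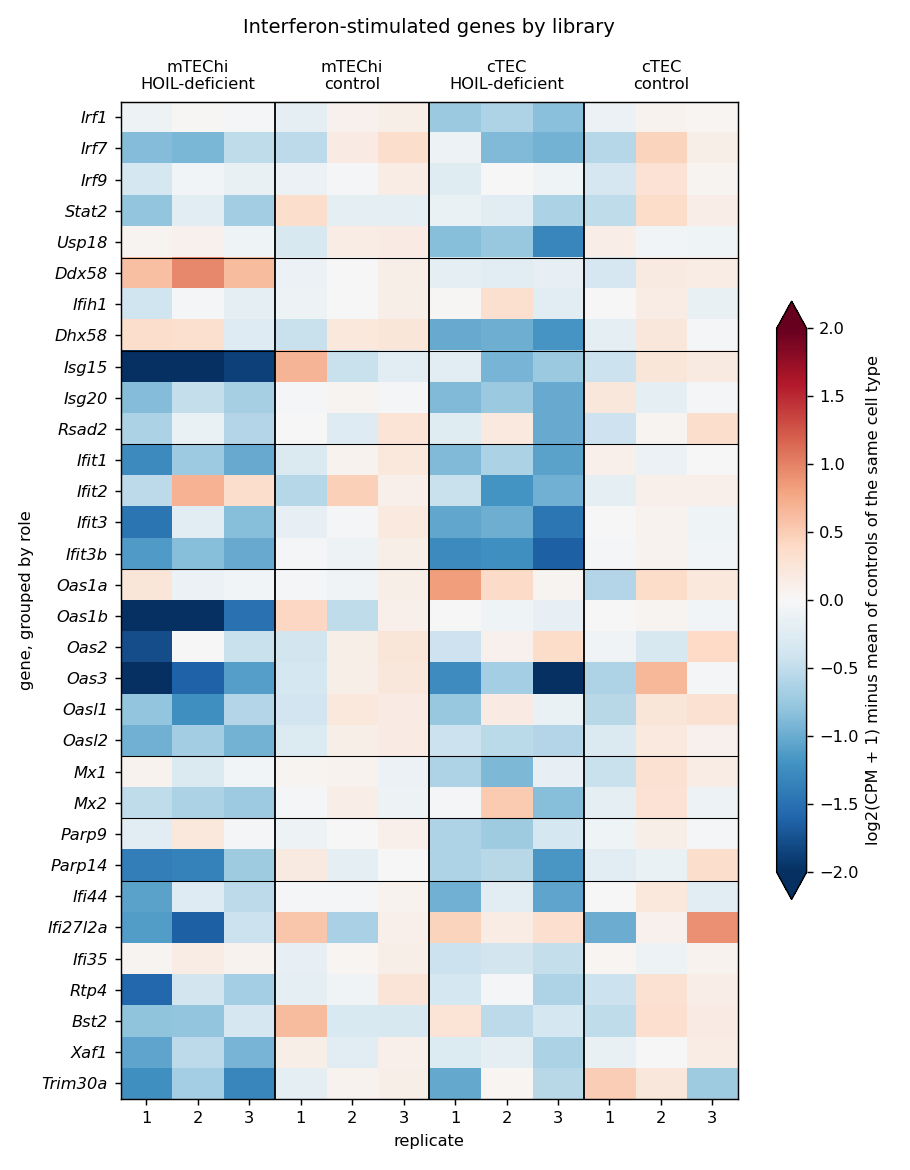
Each cell is log2(CPM + 1) of a gene in 1 library minus the mean of the 3 control libraries of the same cell type, on a colour scale that is clipped at -2 and 2. Rows are the 32 genes grouped by role, and columns are HOIL-deficient mTEChi, control mTEChi, HOIL-deficient cTECs and control cTECs, replicates 1 to 3. Isg15 and Oas1b are dark blue in all 3 HOIL-deficient mTEChi libraries, and Ddx58 is red in all 3.

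The summed level of the set was also lower by library, although abundant genes weigh most in such a sum. In cTECs Isg20 alone averaged 960 CPM without HOIL, against 1774 CPM in controls. The 32 genes together made 2251, 2544 and 2439 CPM in HOIL-deficient mTEChi, against 3109, 3245 and 3515 CPM in control mTEChi. In cTECs they made 3795, 3901 and 3366 CPM without HOIL, against 5559, 5799 and 5909 CPM in controls. The groups did not overlap in either cell type. The mean of log2(CPM + 1) over the 32 genes, which weighs genes more evenly, did not overlap either. It was 5.12 to 5.48 in HOIL-deficient mTEChi, against 5.91 to 6.07 in control mTEChi. In cTECs it was 5.35 to 5.66 without HOIL, against 5.81 to 6.19 in controls. In bulk RNA, fewer cells that express a gene and less RNA per cell cannot be told apart.

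Markers of other cells also moved in these sorts. Of all tested genes 19.9% were called in mTEChi and 12.1% in cTECs. In mTEChi the called shares of fibroblast and pericyte (20%), adipocyte (16.7%) and plasmacytoid dendritic cell markers (25%) lay near that share. In cTECs that of dendritic cell and macrophage markers (15.4%) did. These counts of calls are not read as particular to those markers. In cTECs 12 of 15 thymocyte markers fell, with summed levels of 483 to 917 CPM in HOIL-deficient cTECs, against 1267 to 4355 CPM in controls, where replicate 1 was highest and none of the 15 was at 0. Without that library the count in cTECs was again 10 genes lower and none higher, with Ifi35 no longer called and Parp14 called instead. The remaining control cTEC libraries, at 1267 and 1799 CPM of thymocyte markers, still lay above the HOIL-deficient ones. Leaving that library out therefore does not remove the difference in thymocyte markers. In mTEChi no thymocyte marker was called, at 256 to 405 CPM in HOIL-deficient cells, against 203 to 293 CPM in controls. Endothelial markers were higher in HOIL-deficient cells, 6 of 10 in mTEChi (203 to 564 CPM, against 101 to 140.1 CPM in controls) and 9 of 10 in cTECs (119 to 317 CPM, against 27.3 to 54.9 CPM in controls). Fibroblast and pericyte markers were higher too, 2 of 10 in mTEChi (635 to 851 CPM, against 340.2 to 389 CPM in controls) and 6 of 10 in cTECs (2433 to 3377 CPM, against 152 to 1396 CPM in controls). All 6 tested adipocyte markers were higher in HOIL-deficient cTECs (246 to 412 CPM, against 20.4 to 45.8 CPM in controls, with Lep at 0 in both groups and Plin1 at 0 in controls), and 1 of 6 in mTEChi (1051 to 1438 CPM, against 895 to 2247 CPM). In cTECs 3 of 7 tested B and plasma cell markers fell (38.9 to 59.8 CPM, against 89.7 to 343 CPM), with Pax5 at 0 in both groups, and none was called in mTEChi. Of 8 plasmacytoid dendritic cell markers none was called in cTECs, and 1 was higher and 1 lower in mTEChi (752 to 917 CPM, against 776 to 864 CPM). Of 13 tested dendritic cell and macrophage markers none was called in mTEChi (992 to 1217 CPM, against 908 to 1261 CPM), and in cTECs 1 was higher and 1 lower. Those cTEC levels were 102 to 196 CPM without HOIL, against 148 to 346 CPM in controls, with Cd209a and Fcgr1 at 0 in the HOIL-deficient cTECs. No tested erythroid marker of 4 was called in either cell type. In cTECs 8 of 11 cTEC markers fell (27140 to 27840 CPM, against 46460 to 59770 CPM), while in mTEChi 2 of 10 mTEChi markers rose and 1 fell (12020 to 15580 CPM, against 9498 to 10470 CPM). The part of these markers and of the mitochondrial and Malat1 shares in the results below was not tested.

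**Figure D2:**
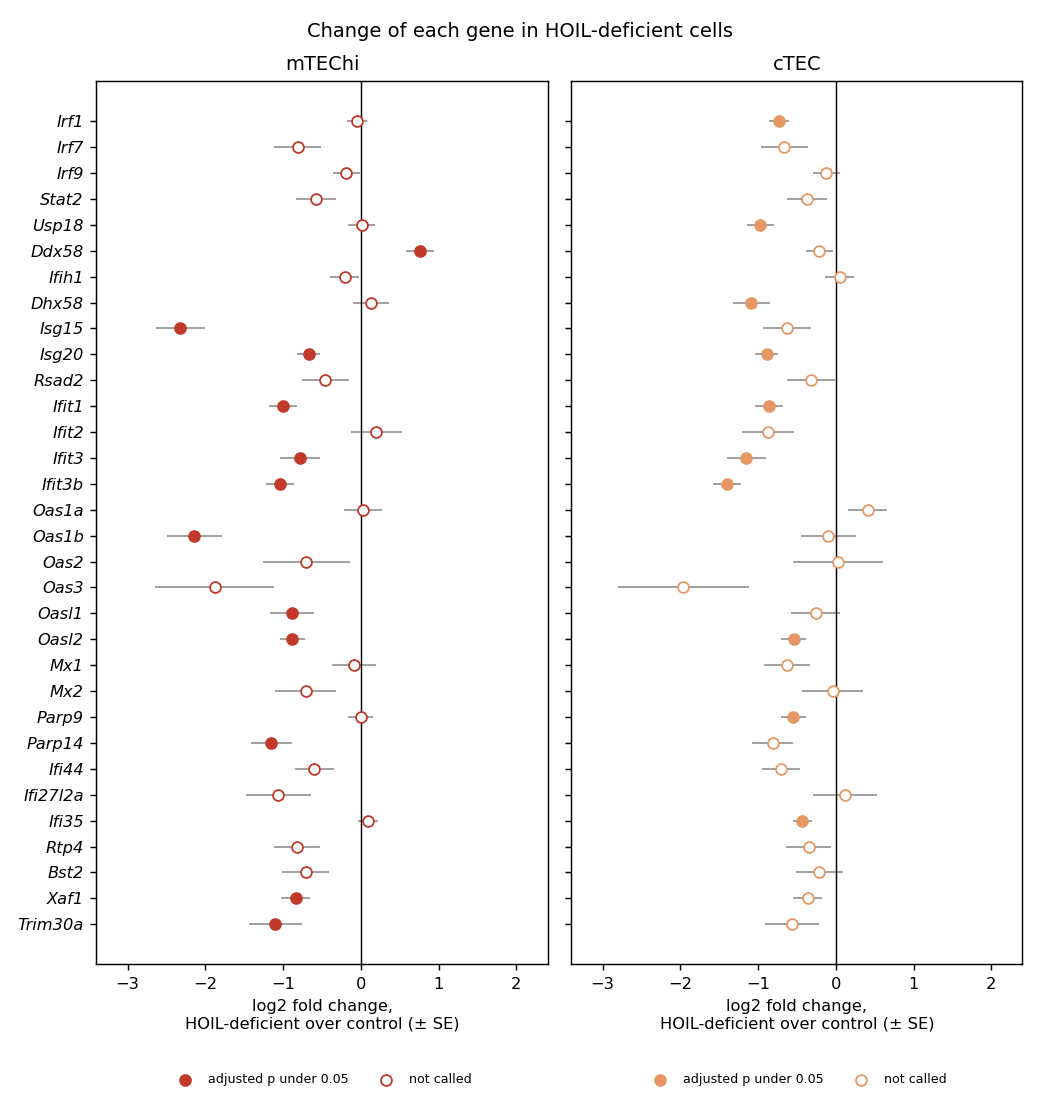
Points are the log2 fold change of each of the 32 genes, HOIL-deficient over control, in mTEChi (left) and cTECs (right), with bars of 1 SE. Filled points passed the adjusted p of 0.05. Filled points lie left of 0 in both panels, 11 in mTEChi and 10 in cTECs, except Ddx58 in mTEChi.

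Among the regulators of the interferon response, Irf1 and Usp18 fell in cTECs and were not called in mTEChi, and the difference of these effects passed the test. Irf1, a transcription factor that is itself induced by interferons, stood at 533, 579.6 and 497 CPM in HOIL-deficient cTECs, against 816, 938 and 918 CPM in control cTECs. All 3 HOIL-deficient libraries were below all 3 controls, with a log2 fold change of -0.73 ± 0.13 (adjusted p = 0.0034), where the value after ± is the standard error (SE). In mTEChi the groups overlapped, with 290.5, 314 and 301 CPM in HOIL-deficient cells, against 271, 330.0 and 336 CPM in controls, a log2 fold change of -0.05 ± 0.13 (adjusted p = 0.84). Usp18, the protease that removes ISG15 from proteins and restrains IFNAR signalling, stood at 137, 146 and 99.9 CPM in HOIL-deficient cTECs, against 274, 239.8 and 234 CPM in control cTECs. The groups did not overlap, and the log2 fold change was -0.97 ± 0.17 (adjusted p = 0.0033). HOIL-deficient mTEChi held 526, 538 and 478 CPM of Usp18, against 406, 561 and 567 CPM in control mTEChi, overlapping groups with a log2 fold change of 0.01 ± 0.17 (adjusted p = 0.98). The difference of the effects, mTEChi minus cTECs, was 0.68 ± 0.18 (adjusted p = 0.033) for Irf1 and 0.98 ± 0.24 (adjusted p = 0.023) for Usp18 on the log2 scale. Irf7, which amplifies interferon alpha production, Irf9 and Stat2, both parts of the ISRE-binding complex, were not called. Their log2 fold changes in mTEChi were -0.81 ± 0.30 (adjusted p = 0.074), -0.19 ± 0.17 (adjusted p = 0.49) and -0.58 ± 0.26 (adjusted p = 0.12), and in cTECs -0.66 ± 0.30 (adjusted p = 0.18), -0.12 ± 0.17 (adjusted p = 0.73) and -0.37 ± 0.25 (adjusted p = 0.39).

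Of the 3 RNA sensors 1 rose in mTEChi and another fell in cTECs. That is 33.3% each, beside 19.9% and 12.1% of all tested genes, but 3 genes are too few to read a share from. Ddx58, which encodes RIG-I, a sensor of RNA with a triphosphate end, was the one gene that rose in HOIL-deficient mTEChi. It stood at 36.7, 47.2 and 37.2 CPM in HOIL-deficient mTEChi, against 21.8, 23.8 and 25.9 CPM in control mTEChi, without overlap and with a log2 fold change of 0.76 ± 0.18 (adjusted p = 0.0094). In cTECs the Ddx58 groups overlapped and the gene was not called, with 112, 111 and 116 CPM in HOIL-deficient cells, against 102, 147 and 143 CPM in controls, a log2 fold change of -0.21 ± 0.17 (adjusted p = 0.48). Dhx58, which encodes LGP2, a regulator of RIG-I and MDA5, fell in cTECs. Its level was 23.4, 24.1 and 20.7 CPM in HOIL-deficient cTECs, against 41.7, 56.6 and 47.2 CPM in control cTECs, without overlap, and the log2 fold change was -1.09 ± 0.24 (adjusted p = 0.0099). In mTEChi Dhx58 overlapped, with 46.4, 45.7 and 30.04 CPM in HOIL-deficient cells, against 26.3, 42.2 and 42.9 CPM in controls, a log2 fold change of 0.13 ± 0.23 (adjusted p = 0.74). The difference of the effects was 0.97 ± 0.24 (adjusted p = 0.025) for Ddx58 and 1.23 ± 0.33 (adjusted p = 0.034) for Dhx58. Ifih1, which encodes the long double-stranded RNA sensor MDA5, was called in neither cell type, at -0.21 ± 0.19 in mTEChi and 0.05 ± 0.19 in cTECs on the log2 scale.

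Isg15 had the lowest log2 fold change of the set in mTEChi. It encodes a ubiquitin-like protein that is attached to other proteins after interferon. HOIL-deficient mTEChi held 19.8, 27.2 and 34.7 CPM, against 206, 94.4 and 110.0 CPM in control mTEChi. The groups were far apart, with control replicate 1 the highest, and the log2 fold change was -2.32 ± 0.32 (adjusted p = 0.00053). In cTECs the groups overlapped, at 74.1, 44.7 and 51.1 CPM in HOIL-deficient cells, against 63.6, 102 and 97.8 CPM in controls, a log2 fold change of -0.63 ± 0.31 (adjusted p = 0.2). The difference of the effects was -1.69 ± 0.44 (adjusted p = 0.027). Isg20, an exonuclease that degrades RNA, fell in both cell types. It stood at 85.2, 112 and 97.96 CPM in HOIL-deficient mTEChi, against 153, 162 and 154 CPM in control mTEChi, and at 956, 1050 and 874 CPM in HOIL-deficient cTECs, against 2055, 1556 and 1711 CPM in control cTECs. Neither pair of groups overlapped, and the log2 fold changes were -0.67 ± 0.15 (adjusted p = 0.0065) in mTEChi and -0.89 ± 0.14 (adjusted p = 0.002) in cTECs. Rsad2, which encodes viperin, an enzyme that makes a chain-terminating nucleotide, overlapped between groups in both cell types, at -0.46 ± 0.30 (adjusted p = 0.31) in mTEChi and -0.32 ± 0.30 (adjusted p = 0.55) in cTECs.

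The IFIT genes, whose products bind viral RNA, lie side by side on chromosome 19. The same 3 of the 4 fell in both cell types (75%, beside 19.9% of all tested genes called in mTEChi and 12.1% in cTECs). Ifit1, which binds RNA without a host-type cap, stood at 98.4, 144 and 119 CPM in HOIL-deficient mTEChi, against 195, 251 and 277 CPM in control mTEChi. In cTECs it stood at 104, 124 and 90.9 CPM without HOIL, against 207, 177 and 194 CPM in controls. Neither pair overlapped, with log2 fold changes of -1.0 ± 0.18 (adjusted p = 0.0026) in mTEChi and -0.86 ± 0.18 (adjusted p = 0.009) in cTECs. Ifit3 stood at 25.2, 61.3 and 38.8 CPM in HOIL-deficient mTEChi, against 63.4, 69.2 and 81.9 CPM in control mTEChi, and its log2 fold change was -0.78 ± 0.25 (adjusted p = 0.045). In cTECs Ifit3 stood at 87.9, 91.7 and 65.8 CPM without HOIL, against 182, 191 and 172 CPM in controls, at -1.15 ± 0.25 (adjusted p = 0.01). HOIL-deficient replicate 2 came close to the mTEChi controls, while the cTEC groups were well apart. Ifit3b stood at 13.9, 17.1 and 15.3 CPM in HOIL-deficient mTEChi, against 31.1, 29.5 and 34.6 CPM in control mTEChi, at -1.04 ± 0.18 (adjusted p = 0.0022). In cTECs Ifit3b stood at 29.3, 30.2 and 22.7 CPM without HOIL, against 71.4, 76.2 and 69.5 CPM in controls, at -1.40 ± 0.18 (adjusted p = 0.00046). Ifit3 and Ifit3b are near copies: 41.1% of the 75-base windows of Ifit3 transcripts and 35.7% of those of Ifit3b also occur in another gene, so the split of reads between them is uncertain. Ifit2 was not called. Its level was 16.96, 40.9 and 32.2 CPM in HOIL-deficient mTEChi, against 16.5, 35.1 and 26.7 CPM in control mTEChi, and 34.8, 20.4 and 24.1 CPM in HOIL-deficient cTECs, against 41.6, 51.6 and 51.3 CPM in control cTECs, where the groups did not overlap (-0.87 ± 0.33, adjusted p = 0.11). The mTEChi call of Ifit3 was lost without HOIL-deficient replicate 1 or 3 or any 1 of the control libraries (adjusted p of 0.065 to 0.15), and the cTEC calls of Ifit1 and Ifit3 among males only (adjusted p of 0.055 and 0.057).

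The OAS genes on chromosome 5 encode enzymes that make 2′-5′ oligoadenylate and thereby activate RNase L, and relatives that lack this activity. Oas1b had a low level everywhere except in control mTEChi. It stood at 2.95, 3.31 and 5.15 CPM in HOIL-deficient mTEChi, against 21.9, 11.1 and 17.5 CPM in control mTEChi, and at 4.92, 4.56 and 4.27 CPM in HOIL-deficient cTECs, against 4.86, 5.15 and 4.72 CPM in control cTECs. The mTEChi groups were apart and the cTEC groups overlapped, with log2 fold changes of -2.14 ± 0.36 (adjusted p = 0.0016) in mTEChi and -0.10 ± 0.35 (adjusted p = 0.94) in cTECs. The difference of the effects was -2.04 ± 0.50 (adjusted p = 0.022). RefSeq lists Oas1b as a transcribed pseudogene of this assembly.

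Of the OAS-like genes Oasl1 fell in mTEChi and Oasl2 in both cell types. Oasl1, in mice a translational inhibitor of Irf7, stood at 81.5, 59.9 and 94.6 CPM in HOIL-deficient mTEChi, against 109, 165 and 159 CPM in control mTEChi, at -0.88 ± 0.28 (adjusted p = 0.043). It was low in cTECs, with 5.03, 10.5 and 8.34 CPM without HOIL, against 5.98, 11.2 and 11.6 CPM in controls, and these groups overlapped (-0.26 ± 0.31, adjusted p = 0.66). Oasl2 stood at 151, 184 and 154 CPM in HOIL-deficient mTEChi, against 245, 320.4 and 333 CPM in control mTEChi, at -0.88 ± 0.16 (adjusted p = 0.0028). In cTECs Oasl2 stood at 392.1, 364 and 354 CPM without HOIL, against 435, 607 and 567 CPM in controls, at -0.54 ± 0.16 (adjusted p = 0.045). Neither Oasl2 pair overlapped. The Oasl1 call was lost without any 1 of the HOIL-deficient mTEChi libraries or control replicate 2 or 3 (adjusted p of 0.055 to 0.16), and the cTEC call of Oasl2 without any 1 of the cTEC libraries except control replicate 1 (0.079 to 0.16). The cTEC calls of Oasl2, Parp9 and Ifi35 were also lost with RLE or upper-quartile factors, without the low-count filter, when the cTEC groups were fitted alone and among males only (adjusted p of 0.054 to 0.15). Oas1a, Oas2 and Oas3 were not called. Oas3 had fitted log2 fold changes of -1.88 ± 0.77 (adjusted p = 0.099) in mTEChi and -1.96 ± 0.84 (adjusted p = 0.15) in cTECs and low levels of 0 to 24.2 CPM, and its libraries did not overlap in either cell type. Oas1a, with 47.6% of its windows shared with other genes, chiefly Oas1g, had log2 fold changes of 0.03 ± 0.25 in mTEChi and 0.41 ± 0.25 in cTECs.

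**Figure D3:**
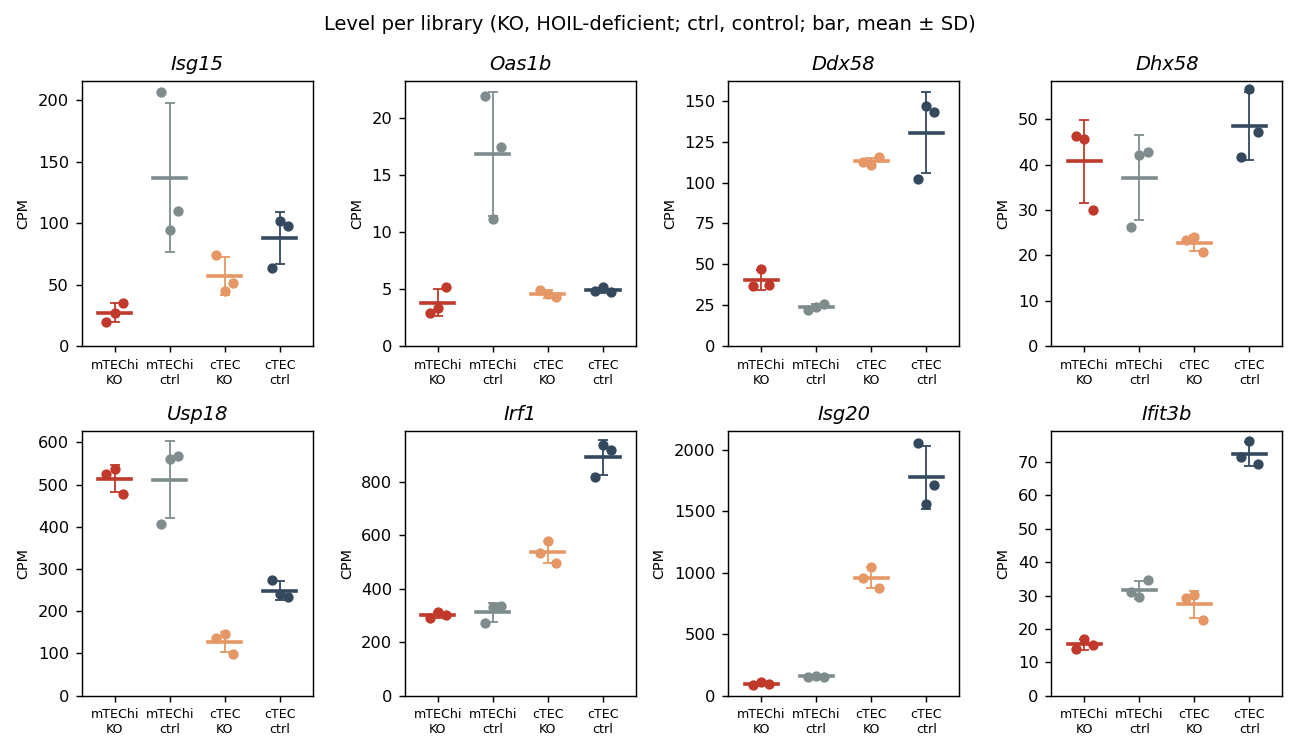
Points are CPM in each library for 8 genes, with the mean and SD of the 3 libraries as bars, in HOIL-deficient mTEChi, control mTEChi, HOIL-deficient cTECs and control cTECs from left to right. Isg15 and Oas1b are lower without HOIL in mTEChi, Dhx58, Usp18 and Irf1 in cTECs, Isg20 and Ifit3b in both, and Ddx58 is higher without HOIL in mTEChi.

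Mx1 and Mx2, which encode dynamin-like GTPases that trap viral components and are listed by RefSeq as transcribed pseudogenes of this assembly, were not called. Mx1 held 25.2, 19.5 and 23.1 CPM in HOIL-deficient mTEChi, against 24.98, 25.1 and 21.99 CPM in control mTEChi. Mx2 had log2 fold changes of -0.71 ± 0.39 (adjusted p = 0.22) in mTEChi and -0.04 ± 0.39 (adjusted p = 1.0) in cTECs. The ADP-ribosyltransferases Parp9 and Parp14 each fell in 1 cell type. Parp14, which attaches single ADP-ribose units, stood at 18.7, 19.1 and 30.5 CPM in HOIL-deficient mTEChi, against 56.97, 44.1 and 50.6 CPM in control mTEChi, without overlap (-1.15 ± 0.26, adjusted p = 0.0082). In cTECs Parp14 stood at 19.6, 20.4 and 13.03 CPM without HOIL, against 26.1, 27.8 and 38.9 CPM in controls, also without overlap but not called (-0.81 ± 0.26, adjusted p = 0.058). Parp9, the partner of the ubiquitin ligase Dtx3l, stood at 67.5, 63.03 and 81.2 CPM in HOIL-deficient cTECs, against 97.5, 112 and 102 CPM in control cTECs, at -0.55 ± 0.16 (adjusted p = 0.039). HOIL-deficient mTEChi held 53.4, 71.4 and 60.5 CPM of Parp9, against 57.7, 61.6 and 66.5 CPM in control mTEChi, which overlapped (0.00 ± 0.16, adjusted p = 0.99). The difference of the effects was not called for Parp9 (0.55 ± 0.23, adjusted p = 0.14) or Parp14 (-0.34 ± 0.37, adjusted p = 0.6). The Parp9 call was lost without HOIL-deficient cTEC replicate 1 or 2 or control replicate 2 or 3 (adjusted p of 0.095 to 0.13). Parp9 overlaps Dtx3l, and with strand not stated their shared reads cannot be told apart.

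Among the remaining effectors 2 of 7 fell in mTEChi (28.6%, beside 19.9% of all tested genes) and 1 in cTECs (14.3%, near the 12.1% of all tested genes). Xaf1, a protein that promotes apoptosis after interferon, stood at 28.4, 41.7 and 31.03 CPM in HOIL-deficient mTEChi, against 65.6, 51.3 and 64.8 CPM in control mTEChi, without overlap (-0.84 ± 0.19, adjusted p = 0.0078). In cTECs Xaf1 stood at 110.0, 116 and 85.2 CPM without HOIL, against 119, 133 and 148 CPM in controls, without overlap and not called (-0.36 ± 0.19, adjusted p = 0.23). Trim30a, in mice a brake on Toll-like receptor signalling, stood at 15.5, 23.2 and 14.7 CPM in HOIL-deficient mTEChi, against 33.1, 39.98 and 41.1 CPM in control mTEChi, at -1.10 ± 0.34 (adjusted p = 0.038). These groups did not overlap, while those of cTECs did, at 8.497, 19.03 and 12.3 CPM without HOIL, against 26.3, 21.6 and 10.8 CPM in controls (-0.56 ± 0.35, adjusted p = 0.33). Ifi35 stood at 262, 274 and 252 CPM in HOIL-deficient cTECs, against 362, 328 and 371 CPM in control cTECs, at -0.43 ± 0.13 (adjusted p = 0.041). It was not called in mTEChi, where 256, 273 and 259 CPM stood against 220.5, 253 and 268 CPM in controls (0.09 ± 0.13, adjusted p = 0.68). The Trim30a call was lost without any 1 of the mTEChi libraries except HOIL-deficient replicate 2 (adjusted p of 0.067 to 0.12), and the Ifi35 call without any 1 of the cTEC libraries (0.057 to 0.14). Ifi27l2a, which encodes a small membrane protein, spread widely between replicates of all groups but HOIL-deficient cTECs. It stood at 96.1, 66.8 and 155 CPM in HOIL-deficient mTEChi, against 307, 132 and 224 CPM in control mTEChi, and at 219, 179 and 204 CPM in HOIL-deficient cTECs, against 80.5, 170.1 and 302 CPM in control cTECs. Both pairs overlapped. Bst2, which encodes tetherin, a protein that holds budding virus at the membrane, Rtp4 and Ifi44 were not called, with log2 fold changes in mTEChi of -0.71 ± 0.30 (adjusted p = 0.11), -0.82 ± 0.29 (adjusted p = 0.062) and -0.60 ± 0.25 (adjusted p = 0.11). The Ifi44 libraries did not overlap in either cell type, and the fold change in cTECs was -0.71 ± 0.24 (adjusted p = 0.076).

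The effect of HOIL loss differed between the cell types for 6 of the 32 genes, which is 18.8%, beside 9.84% of all tested genes (5.97% above 0 and 3.86% below). The difference, mTEChi effect minus cTEC effect, was above 0 for Ddx58, Dhx58, Irf1 and Usp18 and below 0 for Isg15 and Oas1b. These calls had adjusted p of 0.022 to 0.034, and none of the 6 passed under every alternative setting. RLE or upper-quartile factors shifted the median difference of all genes by -0.14 or -0.16 and ended the 4 calls above 0. Relative to the median of all genes, the differences moved by at most 0.01: Irf1 lay at 0.59 above it under all 3 scalings, Isg15 at -1.78 and Oas1b at -2.13. Of all calls of the difference, 60.7% were above 0 with TMM, against 45.0% with RLE and 42.0% with upper-quartile factors. With 1 library left out the number of the 32 genes called was 1 without HOIL-deficient mTEChi replicate 2 or control mTEChi replicate 1, and 2 without HOIL-deficient mTEChi replicate 1, control mTEChi replicate 3 or control cTEC replicate 3. It was 3 without HOIL-deficient mTEChi replicate 3, HOIL-deficient cTEC replicate 1 or control cTEC replicate 2, and 4 or 6 otherwise. Calls among all tested genes fell too, from 1908 to 1287 without HOIL-deficient mTEChi replicate 2 and 1172 without control mTEChi replicate 1. With RLE and upper-quartile factors they were 1587 and 1550. The share of 18.8%, beside 9.84% of all tested genes, is that of the main fit and was not kept under these settings.

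In control cells most of the set differed between the cell types, at a share near that of all genes. In control mTEChi against control cTECs 10 genes were higher and 12 lower, which is 68.8%, beside 64.2% of all tested genes (37.8% higher and 26.4% lower). The median log2 fold change was -0.02, beside 0.24 for all tested genes. All 6 OAS family genes were called, 5 of them higher in mTEChi and Oasl2 lower. The Oas2 call was lost without control cTEC replicate 1 or 2 or control mTEChi replicate 2 or 3 (adjusted p up to 0.085), and the Oas3 call without any 1 of the control libraries except cTEC replicate 2, without the low-count filter and with a block within genotype (up to 0.12). This comparison shares its control libraries with the HOIL comparisons, so its values are given for themselves. Oasl1 differed most, with 109, 165 and 159 CPM in control mTEChi, against 5.98, 11.2 and 11.6 CPM in control cTECs, a log2 fold change of 3.92 ± 0.32 (adjusted p = 2.2e-07). Isg20 went the other way, with 153, 162 and 154 CPM in control mTEChi, against 2055, 1556 and 1711 CPM in control cTECs (-3.50 ± 0.16, adjusted p = 1.2e-09). Ddx58 was likewise lower in mTEChi, at -2.45 ± 0.18 (adjusted p = 8.1e-08). Ifi44 stood at 28.6, 28.5 and 31.1 CPM in control mTEChi, against 126, 147 and 109.8 CPM in control cTECs (-2.12 ± 0.26, adjusted p = 8.3e-06). In none of these 4 genes did the control groups overlap, as for 41.2% of all tested genes in the higher and 29.6% in the lower direction. Usp18 was higher in control mTEChi, at 1.04 ± 0.17 (adjusted p = 0.00014), and the IFIT genes Ifit2, Ifit3 and Ifit3b were lower, at -0.88 ± 0.33, -1.35 ± 0.25 and -1.19 ± 0.18. The Ifit2 call was lost with RLE or upper-quartile factors, with DESeq2, and without control cTEC replicate 2 or 3 or control mTEChi replicate 1 or 3 (adjusted p up to 0.13). RLE and upper-quartile factors shifted the median of all genes by 0.19 and 0.17 here, and the median of the set was then 0.18 and 0.16.

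Per kilobase of transcript, Isg20 had the highest level of the set in control cTECs at 1516 ± 218 RPKM (counts per kilobase of gene length, scaled like CPM, mean ± SD, n = 3). Ifi27l2a followed at 398 ± 241 RPKM, then Irf1 at 265 ± 19.5 and Ifi35 at 259.7 ± 16.7 RPKM, which do not differ beyond their spread. In control mTEChi Ifi27l2a stood at 478 ± 189 RPKM, Usp18 at 289 ± 51.6 RPKM, Ifi35 at 182 ± 17.98 RPKM and Isg15 at 181 ± 80.1 RPKM. The Ifi27l2a and Isg15 values carry large spreads, so the order of these 4 is not fixed by the data. Oas2 was lowest in both, at 1.74 ± 0.417 RPKM in control mTEChi and 0.568 ± 0.214 RPKM in control cTECs.

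**Figure D4:**
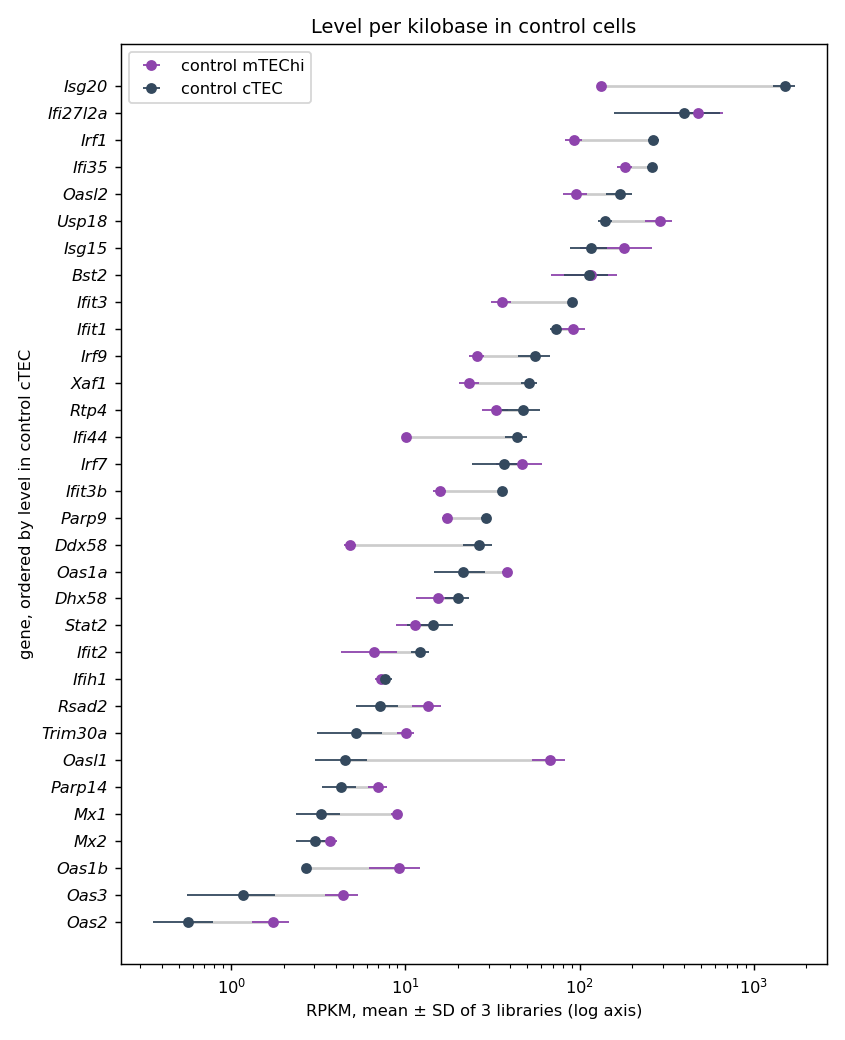
Points are the mean RPKM of each of the 32 genes in control mTEChi and control cTECs, with bars of 1 SD over 3 libraries, on a log axis, and grey lines join the cell types. Rows are ordered by the level in control cTECs. Isg20 lies at 134 RPKM in control mTEChi and 1516 RPKM in control cTECs, and Oasl1 lies the other way at 68.0 and 4.52 RPKM.

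Without HOIL the cell types differed in 16 of the 32 genes (50%, beside 48.4% of all tested genes), 5 higher and 11 lower in mTEChi. Oasl1 and Isg20 again stood apart, at 3.30 ± 0.32 (adjusted p = 1.2e-06) and -3.29 ± 0.16 (adjusted p = 3.3e-09). Isg15 was lower in HOIL-deficient mTEChi than in HOIL-deficient cTECs, at -1.05 ± 0.31 (adjusted p = 0.012), a call that was lost without HOIL-deficient replicate 1 of mTEChi (adjusted p of 0.057) or of cTECs (0.059). Oas1b, higher in control mTEChi than in control cTECs at 1.78 ± 0.35 (adjusted p = 0.0006), was not called between the HOIL-deficient cell types (-0.26 ± 0.35, adjusted p = 0.58).

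The interferons themselves were counted almost only in mTEChi. Ifnb1, interferon beta, had 67, 37 and 21 counts in HOIL-deficient mTEChi, against 65, 41 and 26 counts in control mTEChi, and 0 counts in all 6 cTEC libraries. Its level was therefore at least 47.6-fold higher in control mTEChi than in control cTECs and at least 40.6-fold higher between the HOIL-deficient cell types, taking 3 counts over a group as the limit that a count of 0 allows. The 14 interferon alpha genes together, Ifnab among them, had 101 counts in HOIL-deficient mTEChi, against 89 in control mTEChi, and 0 in cTECs. These counts are not scaled to depth, which was greater in HOIL-deficient mTEChi. Over the group, 3 counts were 0.0867 CPM there, against 0.113 CPM in control mTEChi, so 101 against 89 is not a higher level. Single alpha genes had at most 18 counts in a library, reached by Ifna15, and Ifna1, Ifna2, Ifna4, Ifna5, Ifna9, Ifna11, Ifna12, Ifna13, Ifna14, Ifna16 and Ifnab had highest counts of 4 to 16. Counts of most single alpha genes were scattered, present in some replicates and at 0 in others. Only Ifna13 and Ifna11 had counts in every control mTEChi library. Ifna13 had 6, 5 and 6 counts there, against 0, 0 and 3 in HOIL-deficient mTEChi. Ifna11 had 2, 2 and 1, against 0, 0 and 16. Neither gene passed the filter on low counts, so neither was tested. These near-identical genes can share reads, so their split is uncertain.

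The interferon lambdas followed the same cell type pattern. Ifnl2 had 13.1, 10.7 and 16.8 CPM in HOIL-deficient mTEChi, against 14.7, 19.4 and 28.04 CPM in control mTEChi, and at most 6 counts in a cTEC library. Ifnl3 had 10.7, 11.6 and 9.59 CPM in HOIL-deficient mTEChi, against 7.12, 16.9 and 21.6 CPM in control mTEChi, and at most 1 count in a cTEC library. In control mTEChi they were at least 196-fold and 145-fold higher than in control cTECs, and as near copies they can share reads. No ligand passed the test for HOIL loss: of the 4 tested, Ifnb1 was at -0.35 ± 0.68 (adjusted p = 0.76), Ifnl2 at -0.61 ± 0.56 (adjusted p = 0.48), Ifnl3 at -0.52 ± 0.46 (adjusted p = 0.47) and Ifng at -1.45 ± 0.75 (adjusted p = 0.19) in mTEChi by edgeR. Ifng, the type II interferon made mainly by lymphocytes, had 8, 20 and 46 counts in HOIL-deficient mTEChi, against 50, 39 and 54 counts in control mTEChi, groups whose counts overlapped although their CPM did not, and at most 3 counts in a cTEC library. Ifnz ran the other way, with 2 counts over all mTEChi libraries and 33 over all cTEC libraries, 18 of these in HOIL-deficient replicate 3, and Ifnk had 13 counts in mTEChi and 3 in cTECs.

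The receptor for type I interferon was not called in either HOIL comparison. Ifnar1 averaged 78.1 ± 7 CPM in HOIL-deficient mTEChi and 70.4 ± 4.11 CPM in control mTEChi, and 100.1 ± 5.26 CPM in HOIL-deficient cTECs and 95.8 ± 17.9 CPM in control cTECs (SD, n = 3 each). Ifnar2 had log2 fold changes of 0.01 ± 0.19 (adjusted p = 0.98) in mTEChi and 0.22 ± 0.19 (adjusted p = 0.51) in cTECs. Ifnlr1, the lambda receptor chain, fell in mTEChi to 0.914, 1.04 and 1.27 CPM without HOIL, against 4.202, 4.89 and 4.11 CPM in controls (-2.01 ± 0.43, adjusted p = 0.0058), while the cTEC fold change was -0.79 ± 0.40 (adjusted p = 0.22). The mTEChi groups did not overlap, but the difference of the effects was not called (-1.22 ± 0.58, adjusted p = 0.19).

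The response of the kinase genes Jak1 and Jak2 differed between the cell types. Jak1, the kinase shared by the type I, II and III receptors, stood at 441, 355 and 399 CPM in HOIL-deficient mTEChi, against 154, 179 and 166 CPM in control mTEChi (1.26 ± 0.15, adjusted p = 0.00027), with -0.25 ± 0.15 (adjusted p = 0.32) in cTECs and a difference of 1.51 ± 0.22 (adjusted p = 0.0017). The mTEChi groups did not overlap. Jak2, a kinase of the interferon gamma receptor, stood at 64.7, 77.98 and 50.5 CPM in HOIL-deficient cTECs, against 111, 136 and 107 CPM in control cTECs. It fell in cTECs (-0.87 ± 0.21, adjusted p = 0.015) and was not called in mTEChi (0.26 ± 0.21, adjusted p = 0.41), a difference of 1.13 ± 0.29 (adjusted p = 0.027). Ptpn6, the phosphatase SHP-1, which is also abundant in blood cells, fell in both, at -0.78 ± 0.18 (adjusted p = 0.008) in mTEChi and -1.08 ± 0.18 (adjusted p = 0.0021) in cTECs. Of the 15 receptor and signalling genes 5 rose and 2 fell in mTEChi (46.7%), and none rose and 4 fell in cTECs (26.7%), beside the shares of all genes given above.

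**Figure D5:**
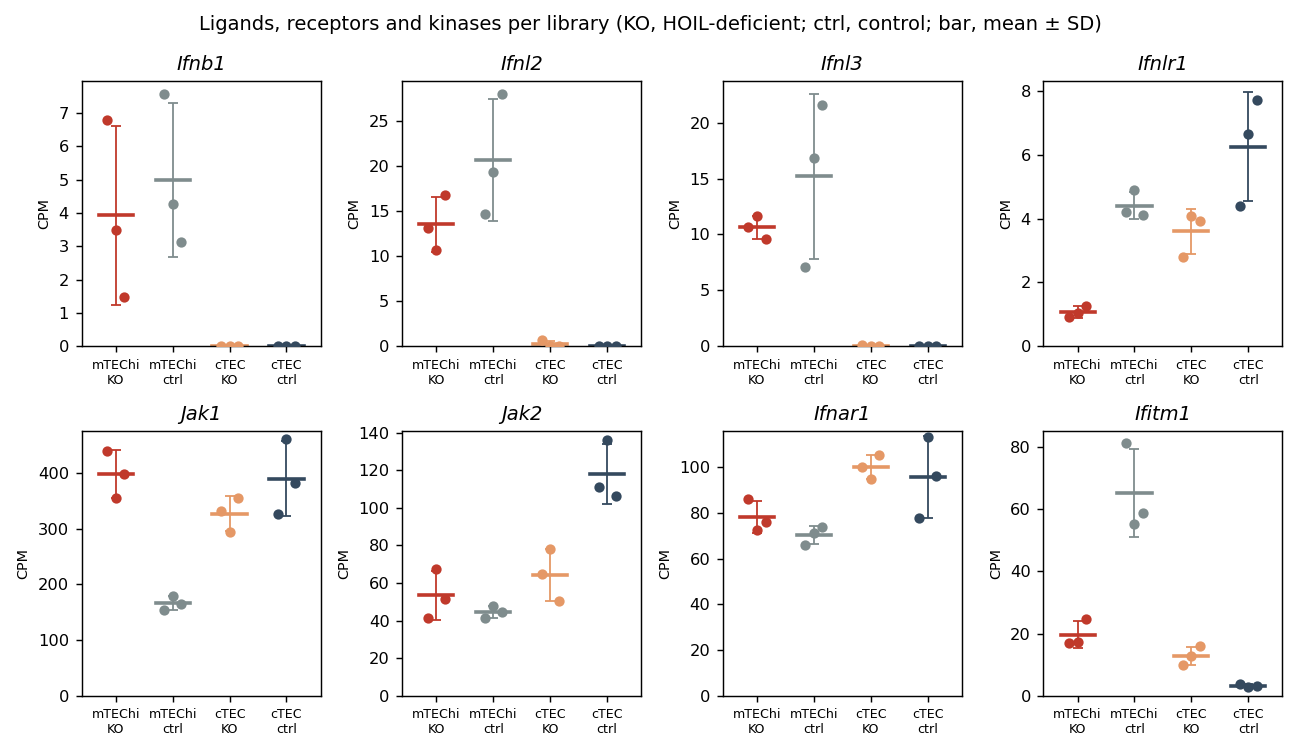
Points are CPM in each library for interferon ligands, receptor chains, kinases and Ifitm1, with the mean and SD of the 3 libraries as bars, in HOIL-deficient mTEChi, control mTEChi, HOIL-deficient cTECs and control cTECs from left to right. Ifnb1 is at 0 in all 6 cTEC libraries, Jak1 is higher without HOIL in mTEChi, Jak2 is lower in cTECs, and Ifitm1 is lower in mTEChi and higher in cTECs.

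Among 18 tested genes of nucleic acid sensing 2 rose and 3 fell in mTEChi (27.8%), and none rose and 2 fell in cTECs (11.1%), beside 19.9% and 12.1% of all tested genes, so the cTEC share was no higher than that of all genes. Trim25, the ubiquitin ligase that helps to activate RIG-I, fell in both. It stood at 23.3, 43.2 and 25.9 CPM in HOIL-deficient mTEChi, against 74.4, 80.7 and 75.5 CPM in control mTEChi (-1.32 ± 0.22, adjusted p = 0.0017), and at 26.3, 33.7 and 27.4 CPM in HOIL-deficient cTECs, against 44.3, 48.7 and 54.6 CPM in control cTECs (-0.76 ± 0.22, adjusted p = 0.041). Tmem173, which encodes STING, the adaptor of cytosolic DNA sensing, rose in mTEChi to 352, 339 and 353 CPM without HOIL, against 166, 242 and 213 CPM in controls (0.75 ± 0.17, adjusted p = 0.0096). Zbp1, a sensor of Z-form nucleic acid, fell there to 40.7, 43.4 and 35.4 CPM without HOIL, against 88.2, 64.2 and 79.03 CPM in controls (-0.95 ± 0.21, adjusted p = 0.0069). Irf3, the factor that first induces Ifnb1 in most cells, was not called, at 0.11 ± 0.15 in mTEChi and -0.06 ± 0.15 in cTECs. Aim2, an inflammasome sensor of DNA, had 0 counts in HOIL-deficient cTECs, against 20 counts over the control cTECs, which makes it at least 7.86-fold lower, at a low level.

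Of a further 42 interferon-stimulated genes 4 rose and 7 fell in mTEChi (26.2%), and 3 rose and 6 fell in cTECs (21.4%), beside 19.9% and 12.1% of all tested genes, with median log2 fold changes of -0.28 and -0.26. Ifitm1, which encodes a membrane protein that blocks virus fusion, fell in mTEChi and rose in cTECs. It stood at 16.9, 17.3 and 24.8 CPM in HOIL-deficient mTEChi, against 81.2, 55.2 and 58.7 CPM in control mTEChi (-1.72 ± 0.25, adjusted p = 0.00078), and at 9.95, 12.7 and 15.8 CPM in HOIL-deficient cTECs, against 3.74, 2.89 and 3.01 CPM in control cTECs (1.99 ± 0.28, adjusted p = 0.00073). Neither pair of groups overlapped, and the difference of the effects was -3.72 ± 0.38 (adjusted p = 0.00029). Znfx1, a helicase-like antiviral protein, fell in both, at -0.98 ± 0.30 (adjusted p = 0.034) in mTEChi and -1.47 ± 0.30 (adjusted p = 0.0071) in cTECs. Ddx60, a helicase that aids RIG-I in some cells, stood at 8.63, 9.45 and 8.25 CPM in HOIL-deficient mTEChi, against 21.1, 26.4 and 17.04 CPM in control mTEChi (-1.30 ± 0.32, adjusted p = 0.012), and was not called in cTECs (-0.76 ± 0.31, adjusted p = 0.14).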

How the data were processed

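RNA from 12 libraries was sequenced in 75-base paired ends on a NextSeq 500 after SMART-Seq v4 and Nextera XT preparation, per the labels' protocols. The deposited files hold raw counts per gene with the gene length, which were made by the authors with featureCounts on mm10, per the submitters' processing notes, with aligner, annotation, strand setting and versions not given in the sources used here. Entrez IDs were matched to symbols through RefSeq GRCm38.p6 (25275 of 27179). A deposited table joining all libraries was not used.

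Counts were fitted in R 4.3.3 with edgeR 4.0.16 (filterByExpr, TMM, robust quasi-likelihood F test, 1 coefficient per group, no block or sex term), with Benjamini-Hochberg adjustment over 19398 genes. The SE of a fold change is its size divided by the root of F. CPM use TMM-scaled totals, RPKM the deposited length. Fits were tested on simulated counts. Depth is 7941217 to 14274333 counts per library, and limits on counts of 0 (3 counts) cover counting error only. The antiviral genes, other lists, tests and promoter motifs were chosen with earlier results of these data known. Values per library are given for genes called in a HOIL comparison or the difference, the 4 highest per kilobase in each control group, the 4 largest cell type differences, Ifnar1, Ifnar2, Irf3 and Rbck1, ligands with at least 4 counts in a library, and up to 3 called genes per further list and comparison; others were added for contrast, and 1 gene that the rule names is not reported here. Alternatives were RLE and upper-quartile factors, no filter, DESeq2 1.42.0, limma-voom 3.58.1, a replicate block, fits of the compared groups, males only and leaving out each library.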

Additional observations from a re-analysis of the deposited data

Results flagged for a closer look

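The effect of HOIL loss differed between mTEChi and cTECs, by the interaction contrast of edgeR over all tested genes, for 6 of the antiviral genes and for 4 named genes around them. On the log2 scale, mTEChi effect minus cTEC effect, Isg15 was at -1.69 and Oas1b at -2.04, which fell in mTEChi and were not called in cTECs. Irf1 was at 0.68, Usp18 at 0.98 and Dhx58 at 1.23, which fell in cTECs and were not called in mTEChi. Ddx58 was at 0.97, which rose in mTEChi and was not called in cTECs. Jak1 was at 1.51, with a rise in mTEChi, and Jak2 at 1.13, with a fall in cTECs. Ifitm1 was at -3.72, with a fall in mTEChi and a rise in cTECs. The fitted 5.26 of Aim2 depends on the prior count, because all 3 HOIL-deficient cTEC libraries held 0 counts of it. The adjusted p of the 6 antiviral genes was 0.022 to 0.034, and none of these 6 calls passed under every alternative setting.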

How the results depend on the processing

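In mTEChi the count of antiviral genes called stayed between 9 and 17 under all alternatives run (12 as reported), and 9 of the 12 calls passed under each of them; Ifit3, Oasl1 and Trim30a did not. In cTECs it lay between 5 and 11 (10 as reported), with 5 among males only, and 5 calls, those of Isg20, Ifit3b, Irf1, Usp18 and Dhx58, passed each time. The difference of the effects gave 6 genes as reported, 2 with RLE, 2 with upper-quartile factors and 3 among males only, and none of the 6 passed each time. With 1 library left out the counts ran from 9 to 12 in mTEChi, 7 to 10 in cTECs, 1 to 6 for the difference, 16 to 20 between control cell types and 15 to 17 between HOIL-deficient cell types. Calls among all genes varied too over the alternatives, from 1944 to 4863 in mTEChi, 1340 to 3332 in cTECs and 949 to 2715 for the difference. Between control cell types they ran from 11449 to 13454, and between HOIL-deficient cell types from 7671 to 9930. The counts of antiviral genes are to be read beside these. No called antiviral gene changed direction. The median log2 value over the set changed sign for the difference without control cTEC replicate 1 (0.03, with a range of -0.34 to 0.03 over the libraries left out), and between control cell types with RLE (0.18), upper-quartile factors (0.16), DESeq2 (0.18), and without control cTEC replicate 2 (0.10) or control mTEChi replicate 2 (0.06) or 3 (0.02), against -0.15 and -0.02 as reported. With RLE, upper-quartile factors and DESeq2 the median of all genes between control cell types shifted too, by 0.19, 0.17 and 0.19. For the fits with a library left out the cause was not tested. The deviations of same-numbered replicates correlated weakly (r of -0.16 to 0.098). Between the HOIL-deficient cell types r was 0.049, 0.078 and 0.035 for equal numbers, above the -0.06 to 0.019 of unequal numbers. Between the control cell types r was 0, 0.098 and -0.037 for equal numbers, against -0.055 to 0.063 for unequal ones. The labels do not say whether equal numbers mark 1 animal, so the main fit took none as pairs. With the replicate block the counts were 13 in mTEChi, 8 in cTECs, 5 for the difference, 22 between control and 16 between HOIL-deficient cell types; blocked within genotype, the difference gave 4 and these cell type comparisons 20 and 16. Depth limits the single interferon alpha genes, which had at most 18 counts in a library.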
